A study of Mus musculus with 4 samples.

Results

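The late entries of the mouse miRNA catalogue were examined in abdominal skin of mice 24 hr after topical shikonin or acetone. These are the miRNAs whose number, the digits after mmu-miR-, is 1000 or more, except miR-1937a, miR-1937b and miR-1937c, which derive from tRNA. The rule used names only, and 105 of the 710 miRNAs on the array met it. Female C57BL/6JNarl mice, 6 to 8 weeks old, had 100 μl of shikonin at 10 μg/μl in acetone, or of acetone alone, put on the skin, so both groups had met the solvent. Shikonin is a naphthoquinone from roots of Lithospermum erythrorhizon. Each group held 2 arrays of total RNA from whole skin, which the study calls biological replicates, although no source used here gives the number of mice or says that each array had its own mouse. A limma p-value here sets the difference between the groups against the spread between arrays of a group, moderated by that of all 710 miRNAs. What part of that spread is technical is not known, so no p-value here is read as a test over mice. The Geniom biochip carries 8 spots for each miRNA, and a bound miRNA primes its own enzymatic extension with biotinylated nucleotides.

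miRNAs are short RNAs that pair with messenger RNAs through their seed, bases 2 to 8, and reduce translation and stability of these messages. A hairpin precursor is cut to a duplex with a 5p and a 3p arm, and usually one of these strands is kept. Numbers are given in order of discovery, and high ones mostly stem from deep sequencing of small RNA libraries. Many of these entries are lowly expressed or specific to a tissue, and some catalogued sequences were later recognised as pieces of tRNA, ribosomal RNA or repeats. In skin, well-studied functions belong mostly to miRNAs with low numbers, such as miR-203 in keratinocyte differentiation.

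RefSeq (GRCm38.p6) lists 48 of the 105 late entries under the exact name used on the array, and another 20 with an arm suffix that the array name lacks. The sequences below are a selection of these 48. Most were among the brightest, had larger differences between the groups, share a hairpin or share a seed with a well-known miRNA. miR-2142, miR-1196, miR-1274a and miR-2132 are not listed under the exact name, so no sequence is given for them. Capitals mark the seed, and the strand is 5′ to 3′.
miR-1894-5p: cUCUCCCCuaccaccugccucu
miR-1894-3p: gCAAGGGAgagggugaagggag
miR-1192: aAACAAACaaacagaccaaauu
miR-1905: cACCAGUCccaccacgcgguag
miR-1187: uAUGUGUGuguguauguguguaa
miR-1895: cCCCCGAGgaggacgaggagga
miR-2137: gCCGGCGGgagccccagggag
miR-1946b: gCCGGGCAgugguggcacaugcuuuu
miR-1195: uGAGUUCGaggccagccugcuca
miR-1839-5p: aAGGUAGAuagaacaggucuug
miR-1928: aGCUACAUugccagcuc
miR-1961: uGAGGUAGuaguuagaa

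In this build the arms of miR-1894 lie at chr17:35917899-35917920 and chr17:35917938-35917959 on the plus strand, within the span of Ppp1r10, a regulatory subunit of a nuclear phosphatase. miR-1192 lies at chr19:23149450-23149471 on the plus strand, within Klf9, which encodes a Krüppel-like transcription factor. miR-1905 lies at chr3:88536311-88536332 on the minus strand, within Mex3a, which encodes an RNA-binding protein. miR-1895 lies at chr3:134240515-134240536 on the minus strand, within Cxxc4, which encodes an inhibitor of Wnt signalling. miR-2137 lies at chrX:72992113-72992133 on the plus strand, within Zfp185. miR-1961 lies at chr5:92788465-92788481 on the minus strand, within Shroom3, which encodes an actin-binding protein of epithelial cells. miR-1187 (chr5:82798964-82798986, minus strand), miR-1839-5p (chr7:81529919-81529940, plus strand), miR-1946b (chr9:21613452-21613477, minus strand), miR-1195 (chr17:70860558-70860580, minus strand) and miR-1928 (chr1:74206562-74206578, minus strand) lie in no span of a protein-coding gene. Of the 48, 34 lie in such a span. The table used for spans gives neither exons nor strand, so exonic or intronic position and orientation to the host are not stated.

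Spots had a median intensity of 376 and 488 on the shikonin arrays, against 352 and 416 on the acetone arrays. Background was taken on each array as the median of 40 miRNAs known from testis, brain, liver, islets or stem cells. The threshold lay 3 MAD (median absolute deviations) above it, and a miRNA with a median spot over the threshold was above background. The thresholds were 448 and 545 on the shikonin arrays and 412 and 464 on the acetone arrays, between 1.27 and 1.35 times background. Of 7 keratinocyte miRNAs, 3 were above background on all 4 arrays and 0 on none, and all 5 fibroblast miRNAs were above it on all 4. The summed raw intensity of the keratinocyte list, before normalization, was 5985 and 4100 on the shikonin arrays and 13520 and 15332 on the acetone arrays. That of the fibroblast list was 5396 and 6805 against 12458 and 12223. The list of striated muscle summed to 2852 and 4052 on the shikonin arrays and to 11150 and 7534 on the acetone arrays, the leukocyte list to 2760 and 4145 against 2936 and 4753. After quantile normalization the median log2 fold changes, shikonin over acetone, were -1.05 (keratinocyte), -1.03 (fibroblast), -0.8 (striated muscle) and -0.11 (leukocyte). In whole skin, fewer cells of a type and less RNA per cell cannot be told apart. The keratinocyte, fibroblast and muscle sums thus did not overlap between the groups, while the leukocyte sums did, and single fibroblast miRNAs had log2 fold changes from -1.57 to 1.11. The part of these differences in the results below was not tested.

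At the threshold of 3 MAD, the late entries were detected about as often as the rest of the catalogue. On the shikonin arrays 28.6% and 31.4% of the 105 were above background, and on the acetone arrays 26.7% and 35.2%. For the 605 other miRNAs the shares were 29.3% and 30.6% on the shikonin arrays and 29.3% and 34.4% on the acetone arrays. On all 4 arrays 21 late entries (20%) were above background, against 124 of the others (20.5%), and 62 (59.0%) were above it on none, against 365 (60.3%). The 22 remaining late entries were above it on 1 to 3 arrays. With background taken from the dimmest of all miRNAs instead, 36 late entries were above it on all 4 arrays. The count of other miRNAs for that choice is not given here, so the likeness of the shares is described for the first choice only. The nearest to the threshold were miR-1186 and miR-1946b just above it, at 1.01 times the threshold on their lowest array, and miR-1940 at 0.99 and miR-1931 at 0.96 below it.

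Detection was uneven along the catalogue. Of the 17 late entries numbered 2000 and above, 7 (41.2%) were above background on all 4 arrays, and 6 (35.3%) on none. Of the 60 numbered from 1900 to below 2000, 5 (8.33%) were above background on all 4 and 42 (70.0%) on none. The 15 numbered below 1300 gave 5 (33.3%) on all 4 and 7 on none, and the 13 from 1300 to below 1900 gave 4 (30.8%) and 7. Of 54 miRNAs of the families miR-466, miR-467, miR-669 and miR-297, which are rich in repeats, 48.1% were above background on all 4 arrays, and of the 52 miRNAs from miR-673 to miR-719 11.5% were. The blocks were compared by counts only, without a test.

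**Figure D1:**
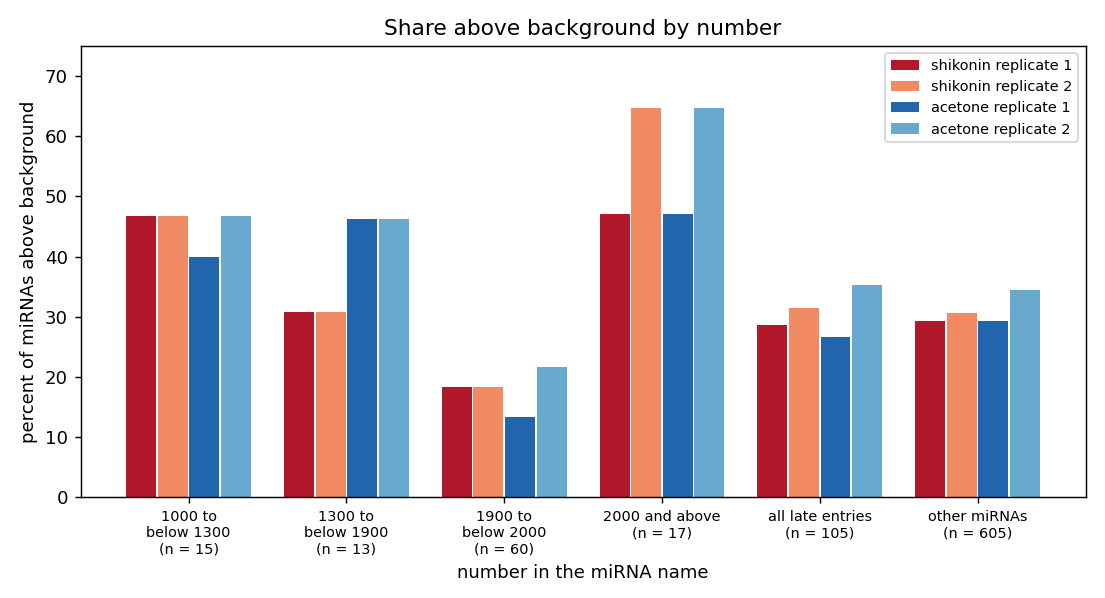
Percent of miRNAs above background on each of the 4 arrays (vertical axis) for the late entries in blocks of their number, for all 105 late entries and for the 605 other miRNAs; each bar is 1 array. The block from 1900 to below 2000 lies lowest, between 13.3% and 21.7%, and the block 2000 and above highest, between 47.1% and 64.7%.

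The brightest late entry was miR-2142, for which the intensity was 9714.5 and 10078 on the shikonin arrays and 20005 and 13439.5 on the acetone arrays, between 24.0 and 63.7 times background. By raw intensity it ranked 7 and 7 of 710 on the shikonin arrays and 3 and 7 on the acetone arrays. After quantile normalization its log2 intensity was 13.46 on 3 of the arrays, because its rank was the same there, and 14.17 on acetone replicate 1. Its log2 fold change, shikonin over acetone, was -0.35 (SE 0.26). The groups overlapped only by the tie at 13.46, while the raw intensities did not overlap. Over 17 other settings of the processing the log2 fold change ranged from -0.96 to 0.50, so its sign depended on them.

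miR-1895, with a mature sequence of 72.7% G and C, had a log2 intensity of 12.27 and 12.67 on the shikonin arrays and 13.37 and 11.94 on the acetone arrays. The acetone arrays lay on either side of the shikonin arrays, and the log2 fold change was -0.19 (SE 0.53). miR-1187, largely made of UG repeats, gave 11.20 and 12.73 on the shikonin arrays and 11.52 and 11.13 on the acetone arrays. Only shikonin replicate 2 stood above both acetone arrays, and the log2 fold change was 0.64 (SE 0.57). Without that array it was below 0. miR-2137, with 85.7% G and C, gave 11.77 and 11.20 on the shikonin arrays and 10.98 and 11.53 on the acetone arrays, which overlapped. miR-1196 completed the 5 brightest and is described with the differences between the groups.

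The study asked which skin miRNAs shikonin alters within 24 hr. No late entry passed the test over all 710 miRNAs (limma adjusted p, Benjamini-Hochberg), where 0.282% passed, all of them higher. Adjusted p among the 105 was at least 0.134. An unadjusted limma p under 0.05 was reached by 10 late entries and by 17.6% of all miRNAs. Of these, 8 late entries were higher (7.62% of 105), against 6.62% of all miRNAs, and 2 were lower (1.90%), against 11.0% of all miRNAs. Without acetone replicate 1 such late entries numbered 3 instead of 10, and among all 710 miRNAs 23 were then higher and 43 lower, instead of 47 and 78. Other settings ended the count of 0. With a spread that follows intensity 4 late entries passed higher and 1 lower, against 24 and 14 of all 710 miRNAs. Without normalization 3 passed, all higher, against 30 higher and 53 lower of all 710, and with arrays scaled on bright miRNAs 88 did, all higher, as did 521 of all 710 miRNAs. The groups did not overlap for 27 late entries that were higher (25.7%, against 22.4% of all miRNAs) and for 14 that were lower (13.3%, against 26.8%). With 2 arrays against 2, the smallest p of an exact two-sided permutation test of a single miRNA is 0.333.

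The larger differences among the late entries were upward. At least 2-fold higher were 3 of the 105, against 4.65% of all miRNAs, and at least 2-fold lower were 0, against 4.23% of all miRNAs. This was not particular to them. Of the 54 miRNAs of the repeat-rich families 20 were at least 2-fold higher and 0 lower. Of the 52 from miR-673 to miR-719, 3 were higher and 0 lower. Log2 fold changes ranged from -0.55 to 1.99 among the late entries, and from -1.71 to 2.59 among the others. The median was 0.02 over the 105 and -0.01 over all 710. Among the 21 late entries above background on all 4 arrays, 17 had a positive and 4 a negative log2 fold change, with a median of 0.19. Among the 124 others above background on all 4 arrays the median was -0.40, with 49 positive and 75 negative. This contrast was described without a test, so it is not shown to be particular to the late entries. The 62 late entries above background on no array ranged only from -0.17 to 0.35, with a median of 0.

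**Figure D2:**
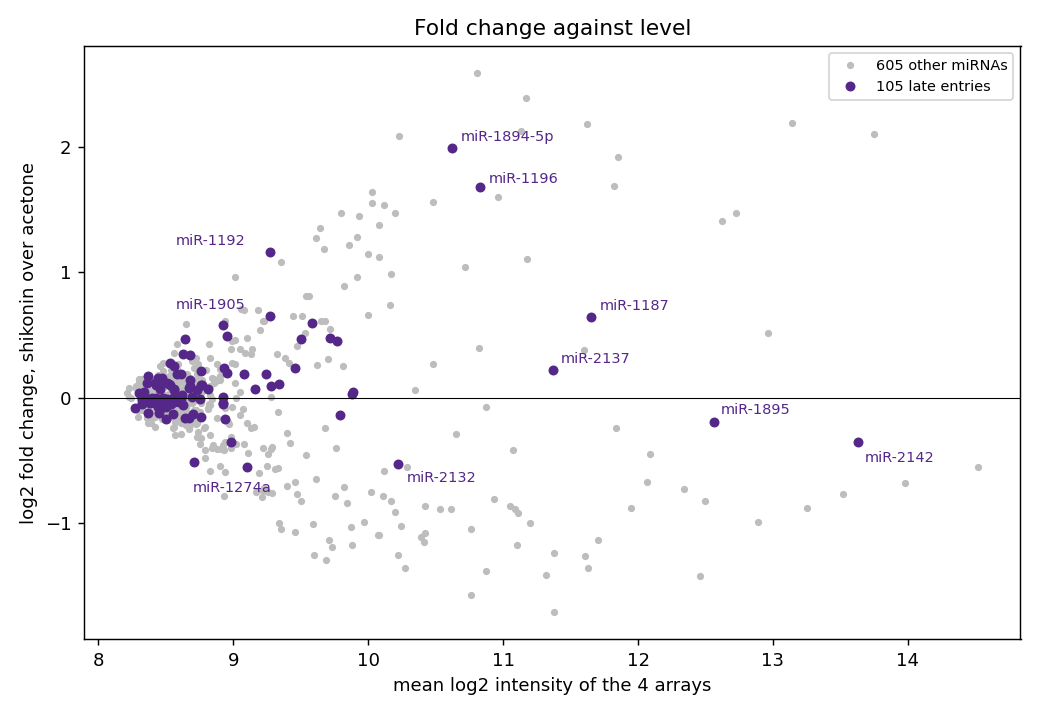
Log2 fold change of shikonin over acetone (vertical axis) against the mean log2 intensity of the 4 arrays (horizontal axis) for 105 late entries and 605 other miRNAs; each point is 1 miRNA. Most late entries sit near 0 at the dim end, miR-1894-5p, miR-1196 and miR-1192 lie above a log2 fold change of 1, and the lowest late entry lies at -0.55.

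miR-1894-5p had the highest fold change of the late entries. Its log2 intensity was 12.17 and 11.06 on the shikonin arrays and 9.15 and 10.10 on the acetone arrays. Both shikonin arrays were above both acetone arrays, and the spread within each group was wide (SD 0.79 in shikonin-treated and 0.67 in acetone-treated skin, n = 2 each). The log2 fold change was 1.99 (SE 0.52; limma adjusted p = 0.187). Its spots varied as well. On shikonin replicate 1 they lay between 584 and 11731 with a median of 4177, and on acetone replicate 1 between 336 and 560 with a median of 476, with 6 of 8 spots filled on each of these arrays.

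miR-1196 gave 11.57 and 11.77 on the shikonin arrays and 9.65 and 10.34 on the acetone arrays. The groups did not overlap, and the shikonin arrays lay closer together than the acetone arrays. Its log2 fold change was 1.68 (SE 0.27), a 3.19-fold difference, with a limma adjusted p of 0.134. The spots of miR-1196 lay between 1296 and 3521 on shikonin replicate 1 and between 2121 and 3505 on shikonin replicate 2, against 592 to 1472 on acetone replicate 1 and 1120 to 2089 on acetone replicate 2.

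miR-1192 stood at 9.55 and 10.15 on the shikonin arrays and at 8.58 and 8.81 on the acetone arrays. It was above background on both shikonin arrays and on 1 of the 2 acetone arrays, and the log2 fold change was 1.16 (SE 0.24; limma adjusted p = 0.150). Its seed, AACAAAC, is also that of miR-495-3p in RefSeq. The array entry miR-495, of the imprinted Dlk1-Dio3 cluster, was at 8.41 and 8.63 on the shikonin arrays and at 8.62 and 8.48 on the acetone arrays, above background on none.

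miR-1905 gave 9.64 and 9.55 on the shikonin arrays and 8.82 and 9.07 on the acetone arrays, a log2 fold change of 0.65 (SE 0.12; limma adjusted p = 0.134). It too was above background on both shikonin arrays and on 1 acetone array. miR-2182 gave 9.15 and 9.24 on the shikonin arrays and 8.55 and 8.87 on the acetone arrays (0.49, SE 0.14; limma adjusted p = 0.203). Neither overlapped between the groups. miR-1952, 17 bases long in RefSeq, was above background on both shikonin arrays (8.94 and 9.47) and on neither acetone array (8.68 and 8.57). With the acetone arrays set at their thresholds, the shikonin mean was 1.27-fold higher. Its log2 fold change was 0.58 (SE 0.21; limma adjusted p = 0.277). miR-1198 was above background on shikonin replicate 2 only (9.02, against 8.73 on shikonin replicate 1). With the acetone arrays set at their thresholds, its shikonin mean was 1.02-fold higher, a margin that rests on that 1 array. The log2 fold change of miR-1198 was 0.47 (SE 0.13; limma adjusted p = 0.189).

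miR-1928 shares its seed, GCUACAU, with miR-221-3p and miR-222-3p, which act on cell cycle inhibitors. It gave 8.80 and 8.89 on the shikonin arrays and 8.47 and 8.55 on the acetone arrays. These levels lie at the edge of background, which it passed on 1 shikonin array. miR-1961 carries GAGGUAG, the seed of the let-7 family of growth-restraining miRNAs, and 10 other mouse miRNAs of RefSeq share it. It was above background on no array, with 8.29 and 8.16 on the shikonin arrays and 8.31 and 8.29 on the acetone arrays. The 8 let-7 miRNAs on the array had log2 fold changes from -1.36 to -1.0, and 7 of them were above background on all 4 arrays. Of the 48 late entries with a RefSeq sequence, 8 share a seed with another mouse miRNA of RefSeq.

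On the lower side stood miR-1274a, whose human namesake derives from a lysine tRNA. It gave 9.02 and 8.62 on the shikonin arrays and 9.49 and 9.25 on the acetone arrays, a log2 fold change of -0.55 (SE 0.19; limma adjusted p = 0.259). Both acetone arrays but 1 of the 2 shikonin arrays were above background for it, and the groups did not overlap. The entries miR-720 and miR-1937a to miR-1937c are also tRNA-derived and not counted among the 105. Their raw intensities, before normalization, summed to 40694 and 26299 on the shikonin arrays and to 70500 and 65664 on the acetone arrays. After quantile normalization their median log2 fold change was -0.62.

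miR-2132 gave 10.19 and 9.72 on the shikonin arrays and 10.58 and 10.38 on the acetone arrays, a log2 fold change of -0.53 (SE 0.20; limma adjusted p = 0.300). The groups did not overlap. miR-1897-5p was above background on neither shikonin array (8.84 and 8.77) and on both acetone arrays (9.42 and 8.88). With the shikonin arrays set at their thresholds, the acetone mean was 1.20-fold higher. Its log2 fold change was -0.35 (SE 0.21; limma adjusted p = 0.504), and -0.08 without acetone replicate 1. miR-2145 and miR-1892 had log2 fold changes of -0.17 (SE 0.11) and -0.14 (SE 0.17), with overlap between the groups for miR-1892 and none for miR-2145.

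Hairpins with both a 5p and a 3p entry by name on the array were compared arm by arm. miR-1894-3p was steady where miR-1894-5p was not, with 9.94 and 9.89 on the shikonin arrays and 9.89 and 9.85 on the acetone arrays (log2 fold change 0.05, SE 0.08). The 5p arm exceeded the 3p arm by 2.24 and 1.18 on the shikonin arrays and by -0.73 and 0.25 on the acetone arrays, in log2 units. These are different probes, so only the change of this gap between the groups, not its sign, can be read. The difference of the log2 fold changes was 1.95, with an exact permutation p of 0.333, the smallest the design allows. miR-1839-5p gave 8.46 and 8.45 on the shikonin arrays and 9.03 and 8.89 on the acetone arrays (-0.51, SE 0.09; limma adjusted p = 0.134). Neither shikonin array had it above background, and with these set at their thresholds the acetone mean was 1.05-fold higher. Acetone replicate 2 (8.89) lay between the thresholds of the shikonin arrays (8.92 and 8.87). miR-1839-3p gave 8.90 and 8.71 on the shikonin arrays and 8.45 and 8.46 on the acetone arrays, above background on none, so no fold is given for it. In the other 3 hairpins named in this way, miR-1897, miR-1933 and miR-1941, at least 1 arm was likewise above background on no array. Their arms were thus not set against each other. Of these 5 hairpins only miR-1894 had both arms above background. The entries miR-1982*, miR-1982.1 and miR-1982.2 carry no 5p or 3p in their names and were not compared. miR-1982* was above background on 1 array, and miR-1982.1 and miR-1982.2 on none.

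**Figure D3:**
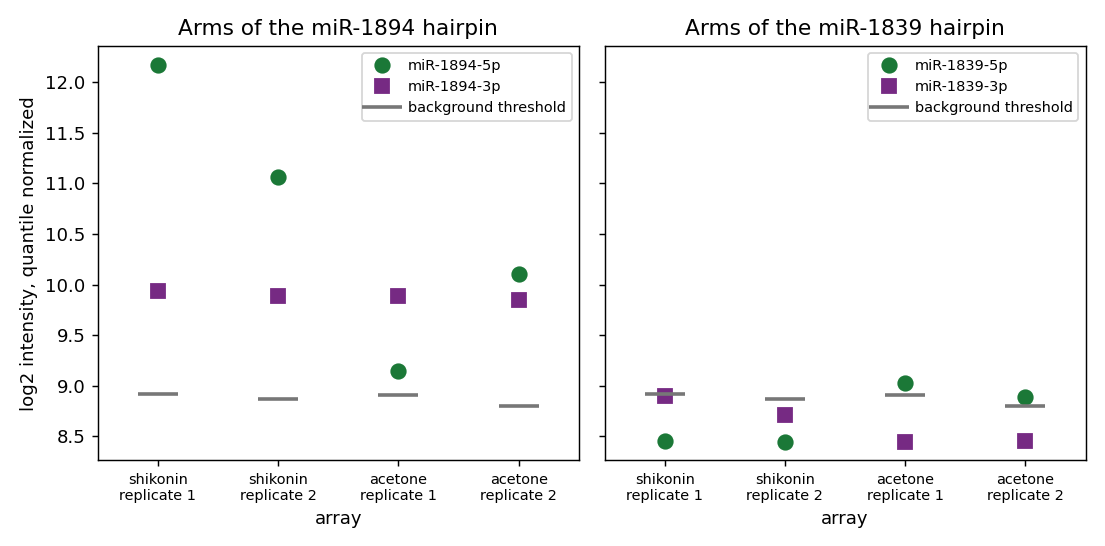
Log2 intensity after quantile normalization (vertical axis) of the 5p and 3p arm of miR-1894 and of miR-1839 on each array; grey dashes mark the background threshold of the array. miR-1894-5p lies at 12.17 and 11.06 on the shikonin arrays with its 3p arm between 9.85 and 9.94 on all 4 arrays, while both arms of miR-1839 stay near the threshold.

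The remaining late entries above background on all 4 arrays lay near 0 or had a spread close to their fold change. miR-1946b had 9.69 and 10.07 on the shikonin arrays and 8.92 and 9.64 on the acetone arrays (0.60, SE 0.30), without overlap. miR-1946a, miR-1935 and miR-1195 had log2 fold changes of 0.48 (SE 0.44), 0.47 (SE 0.30) and 0.45 (SE 0.34), each with overlap. In all 4 of these acetone replicate 1 was the lowest array. Without it their log2 fold changes were 0.24 for miR-1946b, -0.02 for miR-1946a, 0.24 for miR-1935 and 0.09 for miR-1195. miR-1186 had 9.16 and 9.18 on the shikonin arrays and 8.92 and 9.03 on the acetone arrays, a small difference of 0.19 (SE 0.09) without overlap. miR-1224, a mirtron whose precursor is a spliced intron, had 10.01 and 9.77 on the shikonin arrays and 10.13 and 9.59 on the acetone arrays (0.03, SE 0.22). Log2 fold changes of miR-2138, miR-2137, miR-2135, miR-2143, miR-1906, miR-2133 and miR-1939 lay between 0.01 and 0.24, all with overlap. Of the 15 entries miR-2132 to miR-2146, 7 were above background on all 4 arrays, and their log2 fold changes ranged from -0.53 to 0.25. At an unadjusted limma p under 0.05 were 0 of these 15, while the share over all miRNAs was 17.6%. With so few entries, that count is not read as particular to this block.

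**Figure D4:**
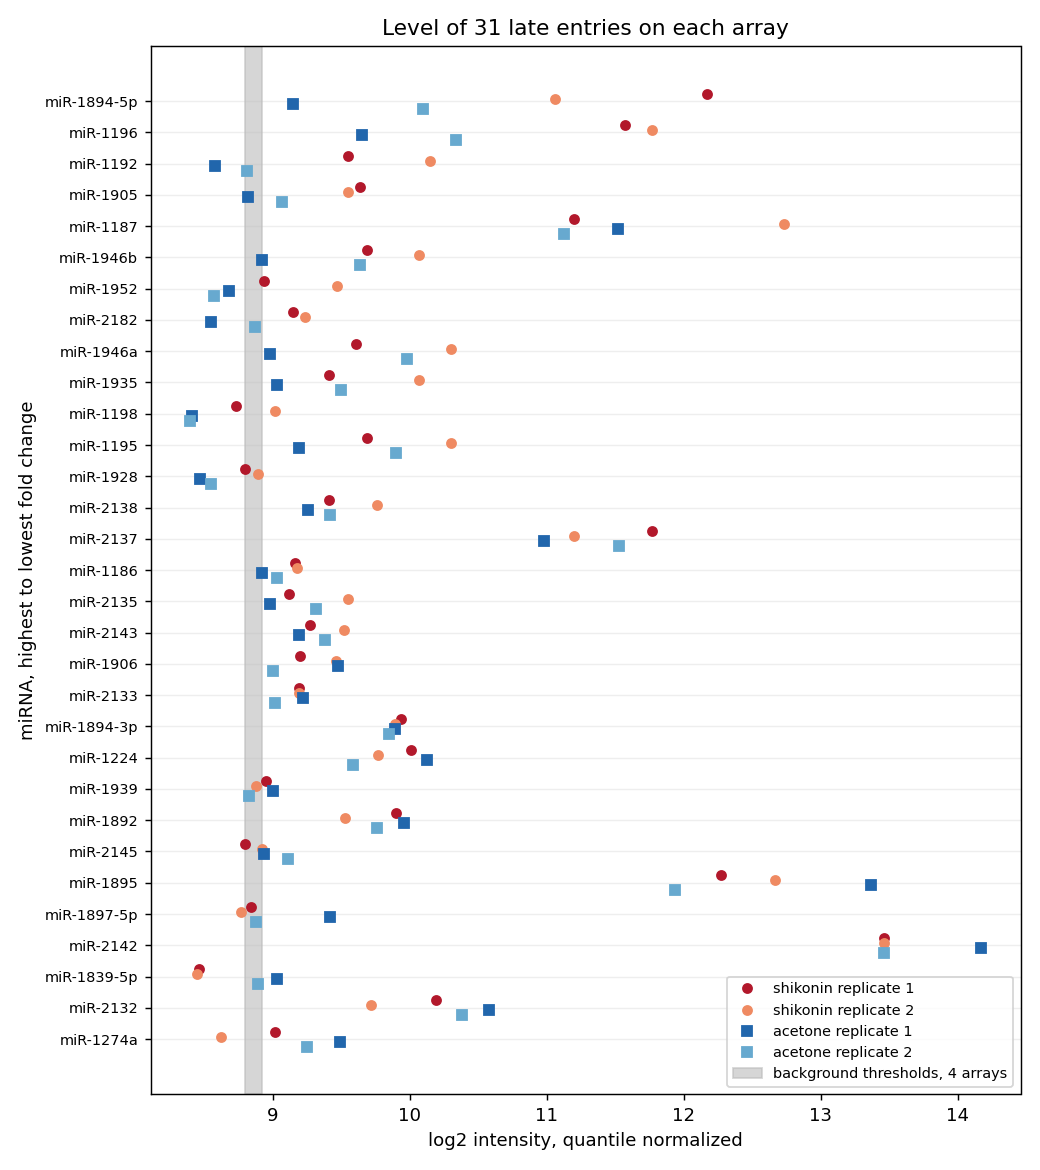
Log2 intensity after quantile normalization (horizontal axis) of 31 late entries on each array, ordered by fold change of shikonin over acetone from the top; circles are shikonin arrays, squares are acetone arrays, and the grey band spans the background thresholds of the 4 arrays. Circles lie right of squares without overlap for miR-1894-5p (11.06 and 12.17 against 9.15 and 10.10), miR-1196 and miR-1192, and left of them for miR-1274a.

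Among the late entries that have a RefSeq sequence, the class richest in G and C was the brightest, without a steady rise over the classes. Of 15 with over 60% G and C, 7 were above background on all 4 arrays and 6 on none, with a median log2 intensity of 9.27. Of 29 with over 40% to 60%, 1 was above it on all 4 and 23 on none, with a median of 8.51. Of 4 with at most 40%, 1 was above it on all 4 and 2 on none, with a median of 8.79. Among the other miRNAs the medians of these classes, from the richest, were 8.61 (n = 34), 8.54 (n = 83) and 8.48 (n = 33). Above background on all 4 arrays were 6, 10 and 3 of these others. Spearman's rho of G and C content with mean log2 intensity was 0.425 over these 48, and 0.20 over 150 other miRNAs matched by exact name. With the log2 fold change rho was 0.107 over the 48. These are descriptions over miRNAs that share 4 arrays.

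**Figure D5:**
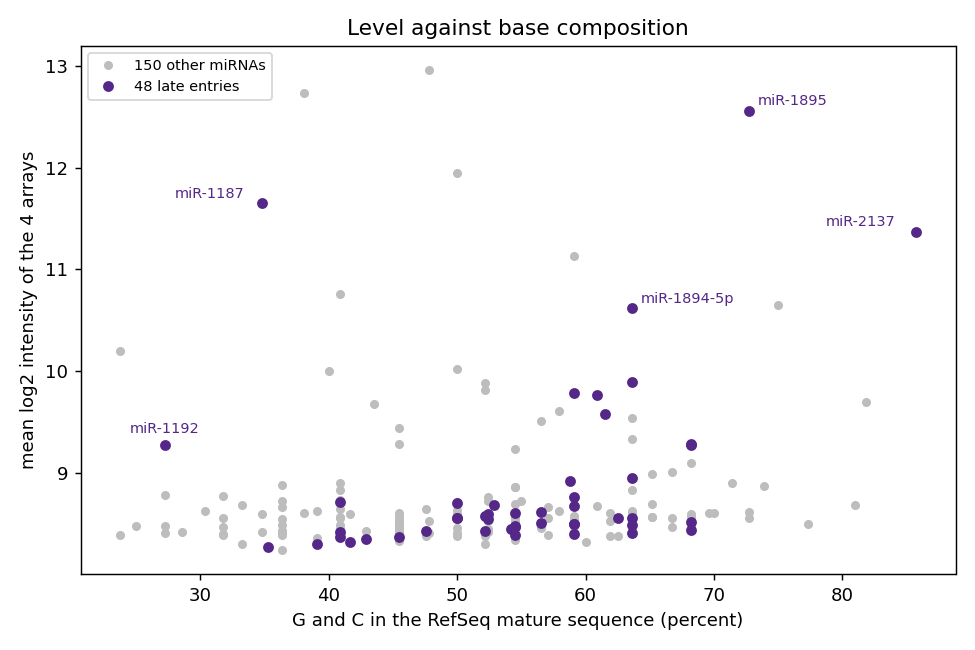
Mean log2 intensity of the 4 arrays (vertical axis) against the percent of G and C in the RefSeq mature sequence (horizontal axis) for 48 late entries and 150 other miRNAs; each point is 1 miRNA. miR-1895 at 72.7% and miR-2137 at 85.7% are bright, and so is miR-1187 at 34.8%.

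Some mature sequences had matches in promoter windows. The search left out neither the locus of the miRNA itself nor windows that overlap, so a match need not be a second site. Bases 2 to 16 were searched on both strands of 32851 RefSeq promoter windows, and 8 of the 48 late entries had a match in at least 1 window. miR-1195 had one in 9 windows (0.0274%), miR-1903 in 6, and miR-1187, miR-1192 and miR-1946b in 4 each. Of the 8, 3 were above background on all 4 arrays and 3 on none, with a median log2 fold change of 0.39. Of the 40 without a match, 6 were above background on all 4 and 28 on none, with a median of 0. Among the other miRNAs matched by name, 7 of 14 with a match and 12 of 136 without one were above background on all 4 arrays. Their median log2 fold changes were 0.25 with a match and 0.01 without one, so a higher median with a match was not particular to the late entries. No 2 of the 48 shared a stretch of 10 or more bases in either orientation.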

How the data were processed

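Array intensities of 4 samples were used. As deposited, spots carry a linear intensity, 8 per miRNA, without normalization or background subtraction by the authors. A second deposited table gives the log2 values of the authors and served as an alternative, with how they summarised spots not stated in these sources. Empty spots made up 4.75% and 4.21% of the shikonin arrays and 7.01% and 6.41% of the acetone arrays. The median of the filled spots was taken, quantile normalized between arrays on the linear scale, set to at least 1 and log2 transformed. Without background subtraction, differences of dim miRNAs are understated. The groups were contrasted, shikonin minus acetone, with limma 3.58.1 under R 4.3.3 over all 710 miRNAs, with Benjamini-Hochberg adjustment and a threshold of 0.05. The code was tested on simulated data. Bounds set the dimmer group at the higher of its own value and its threshold. The late entries named were those above background on all 4 arrays, the 8 with the highest and 8 with the lowest fold change among those above it on both arrays of a group, those at an unadjusted p under 0.05 and above it on at least 1 array, and the 5 brightest. Others were chosen after their values were seen (miR-1839-3p, other arms, seed relatives). The members and lists were chosen with earlier results of these data known. Lists of endothelial and red blood cell markers had median log2 fold changes of -0.56 and -0.06. Sequences came from RefSeq tables of GRCm38.p6, matched by exact name. The number of arrays limits the precision.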

Additional observations from a re-analysis of the deposited data

How the results depend on the processing

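The count of 0 late entries past the limma threshold held under all but 4 of 17 other settings. With an intensity trend it was 5 (miR-1192, miR-1198, miR-1839-3p and miR-1952 higher, miR-1839-5p lower, against 24 higher and 14 lower of all miRNAs), with no normalization 3 (miR-1894-5p, miR-1196 and miR-1192, all higher, against 30 higher and 53 lower of all), and with scaling to the 75th percentile over miRNAs above background on all arrays 88, all higher. That scaling moved the median of all miRNAs to 0.80 and called 521 of the 710 higher and 28 lower. In it and with no normalization, which moved the median of all miRNAs to 0.14, limma used 1 pooled spread. At an unadjusted p under 0.05 were 92 with scaling over bright miRNAs (of all miRNAs 550 higher and 29 lower), 6 with no normalization (42 and 74), 5 when only miRNAs above background on at least 1 array were tested (34 and 63), and 4 in the value table (17 and 6), against 10 (47 and 78). The cause of these shifts was not tested. When 1 array was left out, counts over all miRNAs moved too. The counts of late entries given next are therefore not read as particular to them. With 1 array left out, where the lone array of a group is assumed to vary like the other group, 0 passed and 3 to 11 had an unadjusted p under 0.05. The median log2 fold change of the late entries was 0.05 with cyclic loess, with normexp and without the repeat-rich families, 0.10 with scaling over all miRNAs and over those above background on at least 1 array, 0.83 with scaling over bright miRNAs, 0.16 with no normalization, 0.01 with a floor at the lowest quartile, 0.33 in the value table and 0.02 to 0.04 with 1 array left out. Late entries above background on all arrays were 36 with background from the dimmest miRNAs, 19 with the mean of the log2 spots, 14 with a threshold 5 MAD over background and 21 to 26 with 1 array left out. Counts of the other miRNAs are not given for these settings, so they do not show whether the shares stay alike.

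Of 31 named late entries, 14 kept the sign of their fold change under all 17 settings, among them miR-1894-5p (1.44 to 4.5), miR-1196 (1.09 to 2.53), miR-1192 (0.85 to 3.25), miR-1905 (0.53 to 2.11) and miR-2132 (-0.86 to -0.12). Scaling over bright miRNAs put miR-1839-5p at 0.30 and miR-1274a at 0.20, both below the median of all miRNAs in that setting. Without shikonin replicate 2 the sign of miR-1187 turned, and over all alternatives it ranged from -1.0 to 1.41. The labels do not say whether the replicate numbers pair the samples. The correlation of the deviations was -0.276 over 710 miRNAs and -0.00716 over the late entries. With 1 difference per group, these values cannot settle the pairing. With a replicate block 0 late entries passed and 13 had an unadjusted p under 0.05 (of all miRNAs 37 higher and 79 lower). With the numbers crossed, tried once the data were known, 1 passed (miR-1894-5p; of all miRNAs 19 higher and 16 lower) and 10 had an unadjusted p under 0.05 (66 and 92). Signal over background limits what could be seen, since 62 of the 105 late entries were above background on no array.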
